A study of Homo sapiens with 16 samples.

Results

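Collagens are the structural proteins of the extracellular matrix, and the genes that encode their chains were followed here across 16 RNA-seq libraries of NCI-H1944, a human lung adenocarcinoma cell line. The family was taken as every protein-coding row of the deposited count table whose symbol reads COL, digits, A, digits and whose counts summed over the 16 libraries reached at least 10. This gave 38 of the 60612 rows in the table. Another 6 collagen rows stayed under that minimum, with 1 to 8 counts in all. They were COL1A2, COL6A5, COL6A6, COL9A1, COL10A1 and COL19A1. The study asked how loss of STING, a sensor pathway for cytosolic DNA, and of MAVS, the adaptor for cytosolic RNA sensing, alters the response of these cells to a pulse of MPS1 inhibitor. MPS1i is BAY-1217389, which blocks the mitotic kinase MPS1 and so disturbs chromosome segregation. It was given at 100 nM for 48 h and then washed out, and cells were grown for 24 h more before RNA was taken, with DMSO as the control. The 8 groups of 2 libraries each were SCR (labelled wild type), a STING line, a MAVS line and a DKO line (labelled as knockouts of STING, of MAVS and of both), each after DMSO and after MPS1i. All 8 groups share the parent cell line, the medium and the washout, and the labels do not say whether a line is a clone or a pool or whether replicates were separate cultures. The p-values below therefore measure the spread between these libraries.

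A collagen protein is built of 3 chains wound into a triple helix, and the family is sorted by the structure those helices form. Fibrillar collagens assemble into fibrils, type IV collagens into the sheet under epithelia called the basement membrane, type VI into beaded filaments around cells, and type VII into fibrils that anchor the basement membrane to the tissue beneath. Transmembrane collagens such as type XVII sit in the cell membrane, FACIT collagens attach to the surface of fibrils, and multiplexins such as type XVIII belong to basement membranes and can release anti-angiogenic fragments. Epithelial tumour cells are known mostly for making basement membrane collagens, and fibroblasts for making most fibrillar type I collagen.

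The stretches of DNA before the start site are shown for 4 members on which the results below turn. Among the members above 1 CPM, COL17A1 and COL27A1 had the widest gaps in treatment response between SCR and the STING-labelled line, and COL6A2 and COL5A1 differed most between the DKO-labelled line and SCR under DMSO. Sequences are from RefSeq, build GRCh38.p14, written 5′ to 3′ on the strand of the gene, and only bases outside every exon of the GENCODE 29 annotation are printed. Capitals mark matches, on either strand, to the TATA element TATAAA, the CCAAT box, the Sp1-type GC box GGGCGG, the AP-1 element TGANTCA, the NF-kB type element GGGANTTCC, or an interferon-response type element, here GAAA followed 2 bases later by another GAAA.
COL17A1, chr10:104085958-104086130, minus strand: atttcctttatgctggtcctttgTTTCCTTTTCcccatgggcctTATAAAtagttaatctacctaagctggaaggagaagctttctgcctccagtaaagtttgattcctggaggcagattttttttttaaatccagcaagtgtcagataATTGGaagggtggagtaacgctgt
COL27A1, chr9:114155287-114155536, plus strand: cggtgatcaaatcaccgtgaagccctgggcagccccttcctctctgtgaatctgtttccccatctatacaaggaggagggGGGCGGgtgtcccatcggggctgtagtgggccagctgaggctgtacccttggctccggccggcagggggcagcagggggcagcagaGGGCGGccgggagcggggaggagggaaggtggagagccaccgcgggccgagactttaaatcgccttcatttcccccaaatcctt
COL6A2, chr21:46097862-46098096, plus strand: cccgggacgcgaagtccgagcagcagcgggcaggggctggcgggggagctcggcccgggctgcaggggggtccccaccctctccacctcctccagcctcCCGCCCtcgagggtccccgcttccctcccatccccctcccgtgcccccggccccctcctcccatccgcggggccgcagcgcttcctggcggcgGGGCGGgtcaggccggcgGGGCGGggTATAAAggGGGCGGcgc
COL5A1, chr9:134641553-134641773, plus strand: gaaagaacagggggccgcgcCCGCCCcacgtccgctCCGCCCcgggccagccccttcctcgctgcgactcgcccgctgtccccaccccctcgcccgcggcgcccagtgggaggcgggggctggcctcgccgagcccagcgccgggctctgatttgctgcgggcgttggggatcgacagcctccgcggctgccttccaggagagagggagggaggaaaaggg
These 4 stretches differ widely in base composition, at 40.5% G+C for COL17A1, 64.4% for COL27A1, 79.6% for COL6A2 and 75.6% for COL5A1. The COL17A1 stretch has a TATAAA that begins 206 bases before the RefSeq start, a CCAAT match and a match to the interferon-response type element, and no GC box. The COL6A2 stretch has a TATAAA beginning 32 bases before the RefSeq start and 4 GC boxes, while COL27A1 and COL5A1 have 2 GC boxes each and neither of the other elements.

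Windows from 250 bases before to 50 bases after the start were on hand for 28 of the 38 members, and the same letters were counted in all 27305 such windows. GGGCGG was in 17 of the 28 (60.7%, against 44.6% of all windows), CCAAT in 9 (32.1% against 35.7%) and TATAAA in 4 (14.3% against 12%; COL6A2, COL7A1, COL13A1 and COL17A1). The interferon-response type element was in 1 of the 28, COL17A1 (3.57% against 3.65%). TGANTCA (7.76% of all windows) and GGGANTTCC (1.86%) were in none of the 28. The median G+C content of the members' windows was 66.7%, against 58.3% over all. A match is only a match of letters, and these shares describe the windows without a test.

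Total counts per library ran from 19893784 to 49769938. STING1, the gene of STING, stood at 8.25 and 8.30 CPM (counts scaled to the library total) in SCR under DMSO, at 3.78 and 3.70 in the STING-labelled line (log2 fold change -1.14, adjusted p = 2.1e-07) and at 4.90 and 4.83 in the DKO-labelled line (-0.77, adjusted p = 4e-06). The transcript of MAVS stood at 189 and 183 CPM in SCR, at 195 and 196 in the MAVS-labelled line (0.07, adjusted p = 0.44) and at 222 and 208 in the DKO-labelled line (0.20, adjusted p = 0.00089). The MAVS transcript was thus not called lower in the lines labelled as lacking MAVS, and RNA counts do not show whether the protein was lost. Markers of epithelium summed to 2533 to 3618 CPM in every library, led by KRT8, although the lung adenocarcinoma markers NKX2-1 and SFTPB had 4 counts each in all and KRT19 had 10. Of the 9 epithelial markers 6 were tested, and they went in both directions: after MPS1i in SCR KRT8 (0.50) and KRT18 (0.31) were called higher and CDH1 (-0.15) and EPCAM (-0.72) lower. CDH1 was called lower after MPS1i in every genotype and lower than SCR in each line under both treatments. Their part in the collagen results was not tested. Markers of fibroblasts and stroma summed to 27.5 to 28.5 CPM in SCR under DMSO and to 35.0 to 39.4 after MPS1i. They summed to 27.6 to 29.9 and 38.4 to 39.0 in the STING-labelled line, to 31.5 to 34.6 and 41.9 to 43.2 in the MAVS-labelled line, and to 39.5 to 43.6 and 46.8 to 51.8 in the DKO-labelled line. That list was led by DCN and LUM, 4 of its 8 markers passed the filter on low counts, and PDGFRA, PDGFRB, THY1 and POSTN had 11, 58, 43 and 21 counts in all. The differences in its sum were mostly those of DCN, called higher after MPS1i in every genotype (0.77 in SCR) and higher in each line than in SCR. DCN was the one marker of the list called after MPS1i in SCR and between lines under DMSO, and LUM was called in none of the comparisons of treatment or line. Its part in the collagen results was not tested. In bulk RNA, fewer cells of a type and less RNA per cell cannot be told apart.

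NCI-H1944 cells expressed mainly basement membrane, beaded filament and multiplexin collagens. COL4A2 and COL4A1, the 2 chains of the common type IV trimer, took 25.9% and 17.3% of all collagen counts, and with COL18A1 (14.9%) and COL6A3 (11.3%) they made up 69.3%. Summed over its members, the mean level was 518 CPM for the 6 type IV chains, 222 for the 3 type VI chains, 165 for the 2 multiplexins, 54.8 for COL7A1 and 44.3 for the 8 FACITs. It was 42.9 CPM for the 10 fibrillar chains, 25.4 for the 2 short-chain collagens, 12.01 for the 4 transmembrane collagens and 0.0805 for COL26A1 and COL28A1 together. Per kilobase of exon, which is the scale for comparing genes, COL18A1 was highest at 19.3 CPM per kb, then COL4A2 (14.4), COL4A1 (12.5), COL6A1 (10.8), COL6A2 (7.22), COL6A3 (6.38) and COL7A1 (4.95). COL1A1, the main fibrillar chain of connective tissue, ranked 17th at 0.525 CPM per kb, and COL1A2, its partner in type I collagen, had 2 counts in all 16 libraries. Exon lengths are from GENCODE 29, since the deposited length column gives the genomic span.

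**Figure D1:**
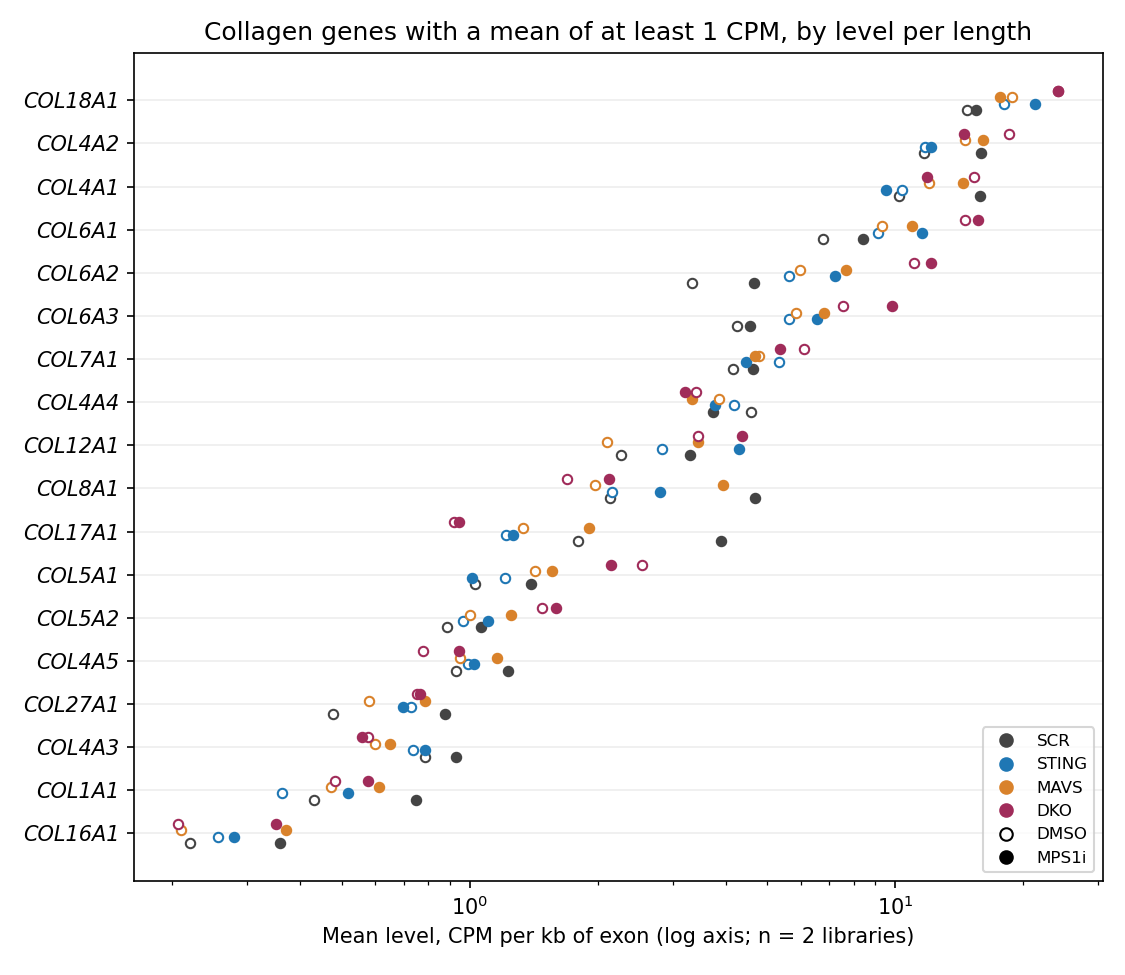
Mean level of the 18 collagen members with at least 1 CPM on average, in each of the 8 groups, in CPM per kb of exon on a log axis (points are means of 2 libraries). COL18A1, COL4A2, COL4A1 and COL6A1 sit at the top and COL16A1 at the bottom.

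Of the 38 members, 18 averaged at least 1 CPM, 26 passed the filter on low counts and entered the fit of 17950 genes, and 12 did not. Those 12 (COL2A1, COL3A1, COL8A2, COL9A2, COL9A3, COL11A1, COL14A1, COL20A1, COL23A1, COL25A1, COL26A1 and COL28A1) summed to between 14 and 72 counts and never passed 11 in a library, so changes in them were not detectable at this depth. COL13A1, COL15A1, COL21A1, COL24A1, COL4A6, COL5A3 and COL22A1 reached the filter's level in only some groups (3 to 7 of 8), so a count over the 26 includes members that entered because they were high somewhere. COL13A1 reached it only in both DKO groups and after MPS1i in the MAVS-labelled line, COL21A1 only after MPS1i in the 3 lines, and COL5A3 after MPS1i in every genotype and in the MAVS-labelled line under DMSO. For these 3 a call of those groups as higher follows in part from how they entered, and it gives no support. The 19 tested members outside those 7 reached the level in all 8 groups.

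More collagen genes were called higher than lower after the MPS1i pulse in each genotype, although in the DKO-labelled line the calls that held without each library in turn were 2 in each direction. In SCR, 14 of the 26 tested members were higher and 1 was lower, with a median log2 fold change of 0.46 against 0.03 over all genes tested. Over all genes 50.0% were called, 26.0% higher and 24.0% lower. A call is an adjusted p under 0.05 in the edgeR test. The STING-labelled line had 9 higher and 1 lower (median 0.16), where 29.4% of all genes were called, 15.5% higher and 13.9% lower. The MAVS-labelled line had 13 higher and 1 lower (median 0.34), where 33.4% were called, 17.1% higher and 16.3% lower. The DKO-labelled line had 4 higher and 2 lower (median 0.11), where 14.8% were called, 6.53% higher and 8.22% lower. The calls that held in each of 16 fits that left out 1 library were 11 of 15 in SCR, 2 of 10 in the STING-labelled line, 5 of 14 in the MAVS-labelled line and 4 of 6 in the DKO-labelled line. By direction, 10 higher and 1 lower held in SCR, 2 and 0 in the STING-labelled line, 5 and 0 in the MAVS-labelled line, and 2 and 2 in the DKO-labelled line. In such a fit the lone library of a group is assumed to vary like the other groups. The held calls in SCR and in the MAVS-labelled line include COL5A3, which gives no support. Among the 19 members at the filter's level in all groups, 13 were called higher and 1 lower in SCR, 7 and 1 in the STING-labelled line, 10 and 1 in the MAVS-labelled line, and 4 and 2 in the DKO-labelled line. COL8A1 and COL12A1 were called higher in all 4 genotypes, and COL6A2, COL6A3 and COL16A1 in 3. COL5A3 was called in 3 too, but it passed the filter mainly through treated libraries and gives no support. The shares of all genes called in as many genotypes were not counted. Summed over the family, the level was 846 ± 38.5 CPM (SD, n = 2) in SCR under DMSO and 1109 ± 1.91 after the pulse. It was 948 ± 0.127 and 1023 ± 32.9 in the STING-labelled line, 1021 ± 26.9 and 1159 ± 18.5 in the MAVS-labelled line, and 1318 ± 65.8 and 1254 ± 34.9 in the DKO-labelled line. Treated libraries were thus above controls in SCR and in the STING-labelled and MAVS-labelled lines. In the DKO-labelled line they overlapped, at 1365 and 1272 CPM under DMSO and 1279 and 1229.5 after MPS1i.

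**Figure D2:**
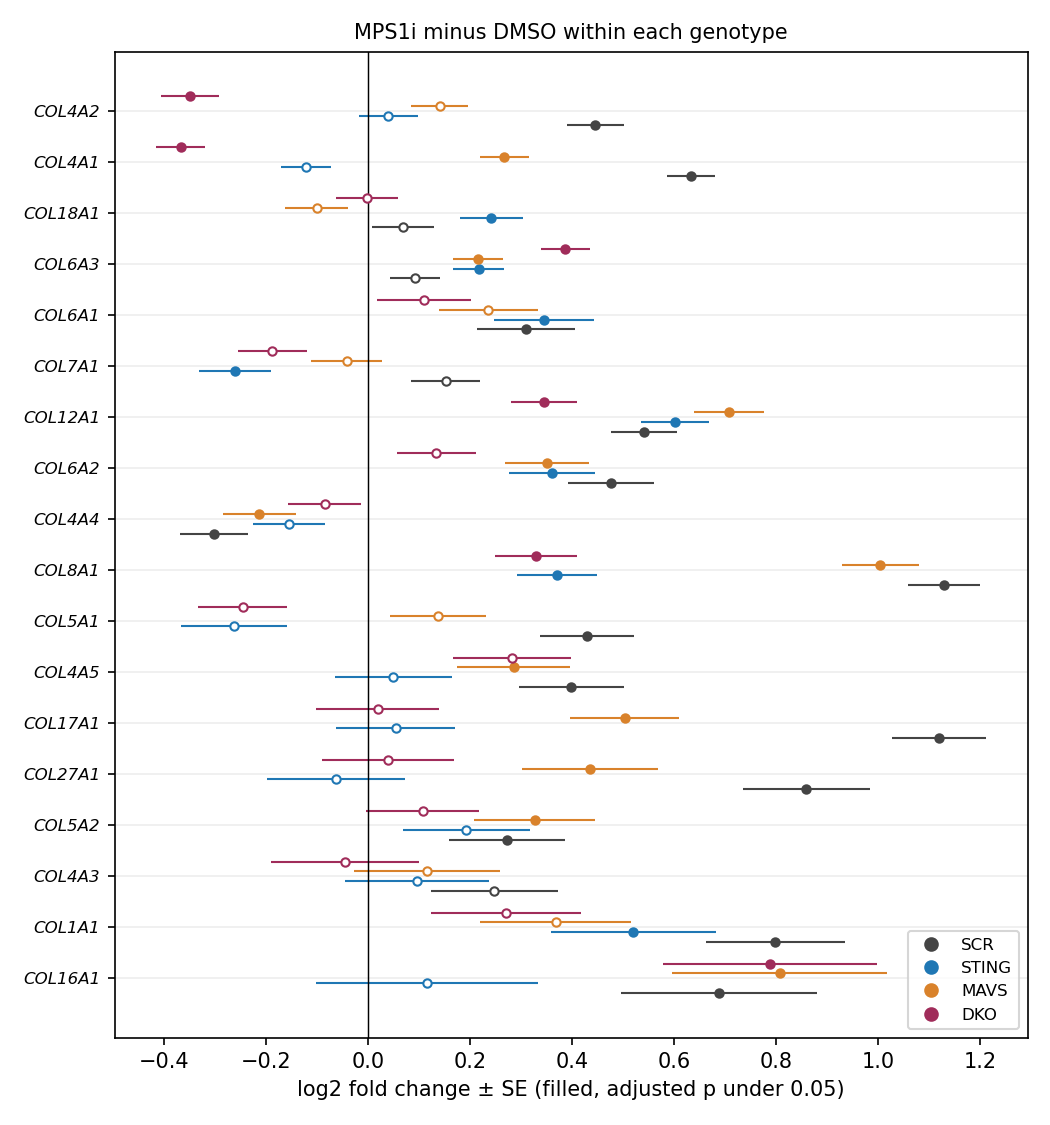
Log2 fold change of MPS1i over DMSO (± SE) for the 18 members above 1 CPM in each genotype, with filled points for an adjusted p under 0.05. COL8A1, COL17A1 and COL27A1 lie far to the right in SCR (1.13, 1.12 and 0.86), while COL4A1 and COL4A2 lie left of 0 in the DKO-labelled line (-0.37 and -0.35).

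The size of the treatment effect was compared between each line and SCR with an interaction term. The 3 lines share the SCR libraries in these tests. The effect was lower in the STING-labelled line for 7 members and higher for none, where 19.5% of all genes were called, 9.97% higher and 9.55% lower. All 7 (COL4A1, COL4A2, COL5A1, COL7A1, COL8A1, COL17A1 and COL27A1) held in each fit without 1 library. The effect was lower in the MAVS-labelled line for 3 members (COL4A1, COL4A2 and COL17A1), where 7.44% of genes were called, 2.92% higher and 4.52% lower. Of these, COL4A1 held in each such fit, and COL4A2 and COL17A1 did not. In the DKO-labelled line the effect was lower for 8 members (COL4A1, COL4A2, COL5A1, COL6A2, COL7A1, COL8A1, COL17A1 and COL27A1) and higher for COL6A3. There 28.0% of genes were called, 13.5% higher and 14.5% lower. All of these DKO calls but those of COL6A2 and COL7A1 held. The STING-labelled and MAVS-labelled lines were not tested against each other.

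**Figure D3:**
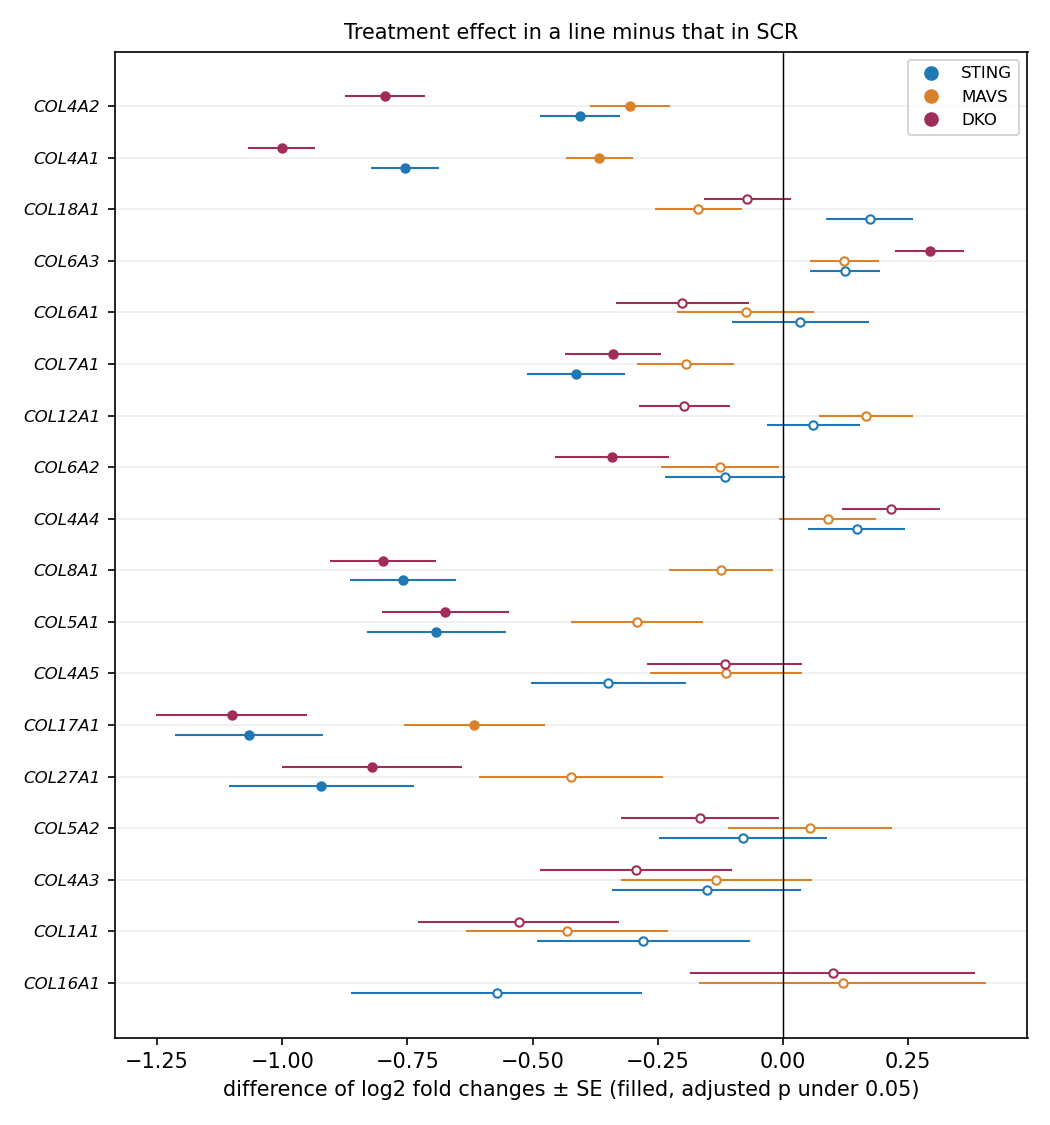
Difference between the log2 treatment effect in a line and that in SCR (± SE) for the 18 members above 1 CPM, with filled points for an adjusted p under 0.05. COL17A1, COL4A1, COL8A1 and COL27A1 lie near -0.8 to -1.1 in the DKO-labelled line, and COL12A1 lies near 0 in all 3 lines.

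COL17A1 (ENSG00000065618, chr10:104031286-104085880, minus strand) encodes the transmembrane collagen of hemidesmosomes, which fasten epithelial cells to the basement membrane. In SCR it stood at 12.8 and 12.6 CPM under DMSO and at 28.6 and 26.7 after the pulse. COL17A1 went from 8.38 and 8.85 to 8.50 and 9.35 in the STING-labelled line, from 10.3 and 8.47 to 13.6 and 13.3 in the MAVS-labelled line and from 5.97 and 7.05 to 6.45 and 6.91 in the DKO-labelled line. Both SCR libraries after MPS1i were above the other 14. The treated and control libraries were apart in SCR and the MAVS-labelled line, and they overlapped in the other 2 lines. COL17A1 had a log2 fold change of 1.12 ± 0.09 (adjusted p = 1.3e-10) in SCR and 0.50 ± 0.11 (adjusted p = 0.00054) in the MAVS-labelled line. It was 0.05 ± 0.12 (adjusted p = 0.77) in the STING-labelled line and 0.02 ± 0.12 (adjusted p = 0.95) in the DKO-labelled line. The effect differed from that in SCR by a log2 difference of -1.07 ± 0.15 (adjusted p = 7.7e-06) in the STING-labelled line, -0.62 ± 0.14 (adjusted p = 0.0055) in the MAVS-labelled line and -1.10 ± 0.15 (adjusted p = 2.8e-06) in the DKO-labelled line. Leaving out MAVS DMSO replicate 1 ended the MAVS call (-0.45, adjusted p = 0.14), and the other 2 held in every such fit. COL13A1, the other transmembrane collagen tested, had 1 and 0 counts in SCR under DMSO and 0 and 1 after MPS1i. A fall there was thus not detectable at this depth, and no rise was seen. In the MAVS-labelled line it was at 0.108 and 0 CPM under DMSO and at 0.358 and 0.394 after MPS1i. The latter was among the groups through which it passed the filter, so the values are given without a test. COL23A1 and COL25A1 did not pass the filter.

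Among short-chain collagens, COL8A1 (ENSG00000144810, chr3:99638475-99799226, plus strand), a network-forming chain found around vessels and in remodelling tissue, was the member with the smallest adjusted p in SCR. Its level was 20.2 and 20.1 CPM in SCR under DMSO and 41.4 and 46.7 after MPS1i. It went from 21.03 and 19.7 to 25.6 and 27.01 in the STING-labelled line, from 18.3 and 18.8 to 36.5 and 37.8 in the MAVS-labelled line and from 16.1 and 15.9 to 20.3 and 19.8 in the DKO-labelled line. Treated libraries were above the controls without overlap in all 4 genotypes, but by less in the STING-labelled and DKO-labelled lines. COL8A1 had a log2 fold change of 1.13 ± 0.07 (adjusted p = 6.4e-13) in SCR and 1.005 ± 0.08 (adjusted p = 7.1e-11) in the MAVS-labelled line. It was 0.37 ± 0.08 (adjusted p = 0.00074) in the STING-labelled line and 0.33 ± 0.08 (adjusted p = 0.0052) in the DKO-labelled line. The last was lost without replicate 1 of DKO MPS1i (0.31, adjusted p = 0.071). Set against SCR, the effect differed by -0.76 ± 0.11 (adjusted p = 7.7e-06) in the STING-labelled line and -0.80 ± 0.11 (adjusted p = 1.8e-06) in the DKO-labelled line, and by -0.12 ± 0.10 (adjusted p = 0.60) in the MAVS-labelled line, where no difference was called. COL8A2, its partner chain, had too few counts to test.

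**Figure D4:**
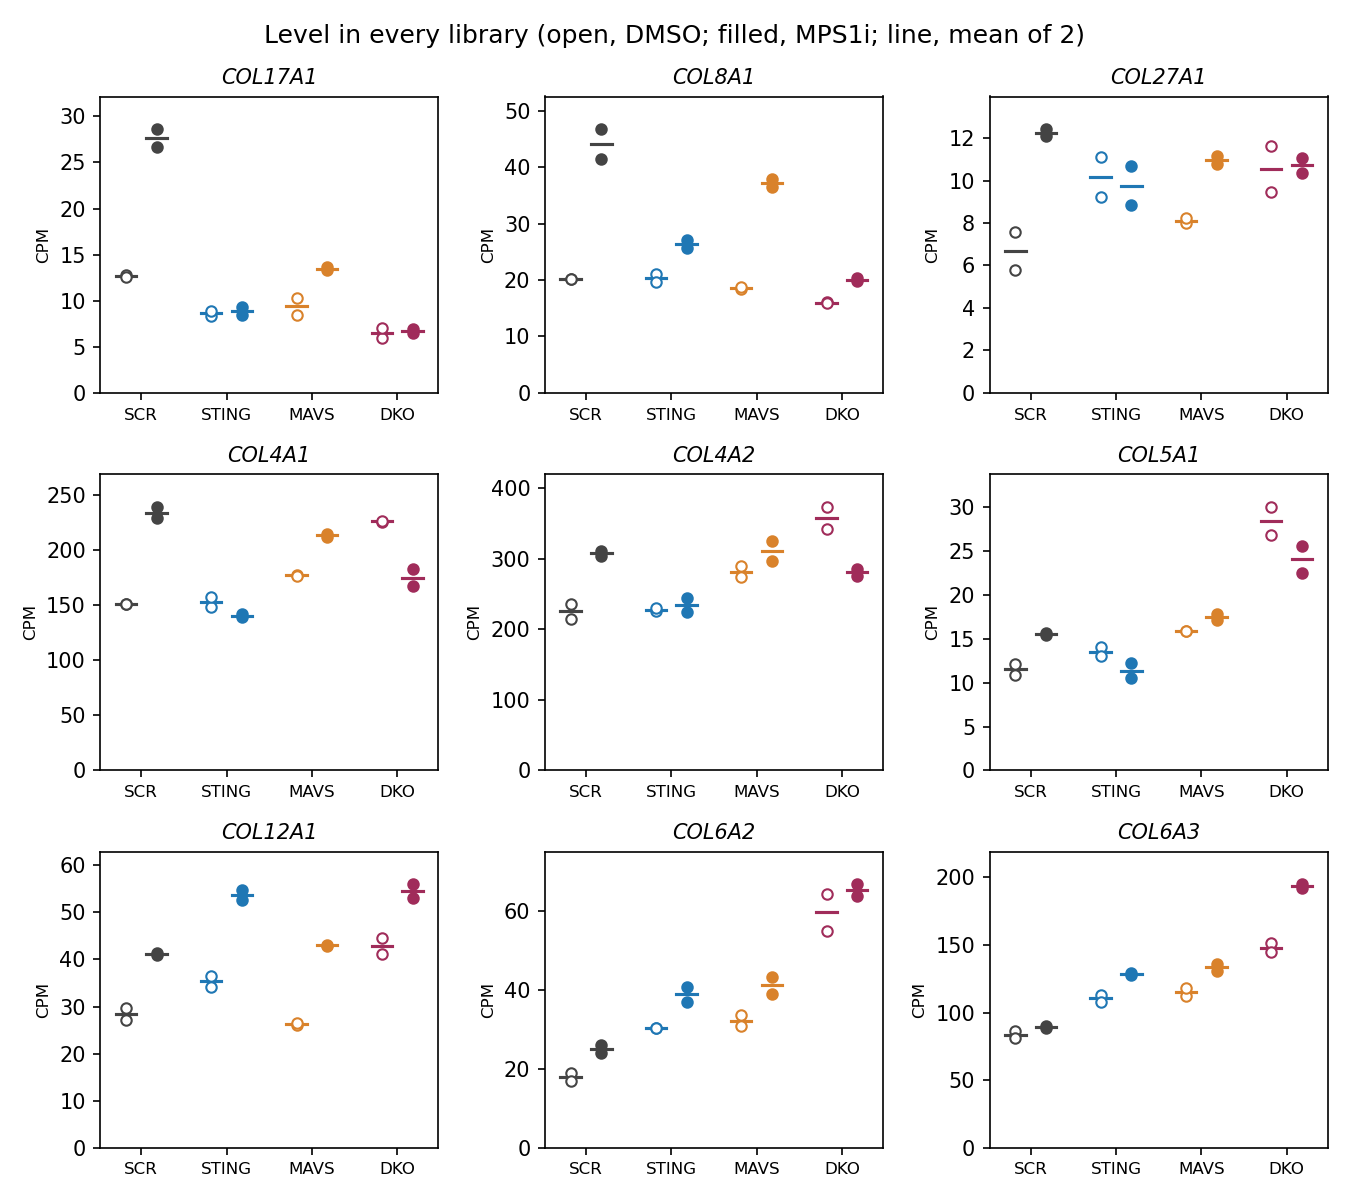
Level in CPM of 9 members in each of the 16 libraries (open circles, DMSO; filled circles, MPS1i; short lines, means of 2), with a linear axis from 0 in each panel. The 2 filled SCR circles of COL17A1 (28.6 and 26.7 CPM) stand above the other 14, and COL6A2 is highest in the DKO-labelled line (55.1 to 66.9 CPM).

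Among the 6 type IV chains, 3 were called higher and 1 lower after MPS1i in SCR, 2 higher and 1 lower in the MAVS-labelled line, 0 and 2 in the DKO-labelled line, and none in the STING-labelled line. The shares of all genes called in those comparisons were 50.0%, 33.4%, 14.8% and 29.4%. COL4A1 (ENSG00000187498, chr13:110148963-110307157, minus strand) and COL4A2 (ENSG00000134871, chr13:110305812-110513209, plus strand) form the ubiquitous trimer of basement membranes and lie head to head, with RefSeq starts 127 bases apart and deposited spans that overlap by 1346 bases. The strand setting of the counting was not given, so reads in that overlap cannot be told apart. COL4A1 stood at 151 and 151 CPM in SCR under DMSO and at 229 and 239 after MPS1i. COL4A1 went from 148 and 157 to 139 and 142 in the STING-labelled line, from 178 and 177 to 215 and 212 in the MAVS-labelled line and from 226 and 226 to 183 and 167 in the DKO-labelled line. Treated libraries were thus above controls in SCR and the MAVS-labelled line and below them in the STING-labelled and DKO-labelled lines, with no overlap in any. COL4A1 had a log2 fold change of 0.63 ± 0.05 (adjusted p = 2.2e-11) in SCR and 0.27 ± 0.05 (adjusted p = 8.4e-05) in the MAVS-labelled line. It was -0.12 ± 0.05 (adjusted p = 0.067) in the STING-labelled line and -0.37 ± 0.05 (adjusted p = 4.0e-06) in the DKO-labelled line. The STING value was called lower in 6 of the 16 fits without 1 library (those without SCR MPS1i replicate 2, STING DMSO replicate 1, MAVS DMSO replicate 1, DKO DMSO replicate 2 and either DKO MPS1i library; adjusted p 0.0317 to 0.0455). Against SCR the effect differed by -0.75 ± 0.07 (adjusted p = 1.0e-08), -0.37 ± 0.07 (adjusted p = 0.00058) and -1.001 ± 0.07 (adjusted p = 9.7e-12) in the STING-labelled, MAVS-labelled and DKO-labelled lines. All 3 held in every such fit.

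COL4A2 went from 236 and 215 CPM to 311 and 303 in SCR and from 373 and 341 to 285 and 276 in the DKO-labelled line. It went from 226 and 229.9 to 224 and 244 in the STING-labelled line, where the libraries overlapped, and from 289 and 274 to 297 and 325 in the MAVS-labelled line. COL4A2 had a log2 fold change of 0.45 ± 0.06 (adjusted p = 3.2e-07) in SCR and -0.35 ± 0.06 (adjusted p = 8.7e-05) in the DKO-labelled line, so the call had opposite signs in the 2, as for COL4A1. It was 0.04 ± 0.06 (adjusted p = 0.64) in the STING-labelled line and 0.14 ± 0.06 (adjusted p = 0.058) in the MAVS-labelled line, the last called without MAVS MPS1i replicate 1 (0.19, adjusted p = 0.0435). The effect differed from SCR by -0.41 ± 0.08 (adjusted p = 0.00063) in the STING-labelled line, -0.79 ± 0.08 (adjusted p = 2.2e-08) in the DKO-labelled line and -0.31 ± 0.08 (adjusted p = 0.016) in the MAVS-labelled line. The MAVS difference was lost without replicate 2 of SCR DMSO (-0.23, adjusted p = 0.13), replicate 1 of SCR MPS1i (-0.28, adjusted p = 0.091), replicate 1 of MAVS DMSO (-0.26, adjusted p = 0.13) or replicate 1 of MAVS MPS1i (-0.24, adjusted p = 0.14). Per kilobase, the ratio of COL4A1 to COL4A2 stayed between 0.761 and 1.03 over the 16 libraries. It was 0.878 ± 0.0606 (SD, n = 2) in SCR under DMSO and 0.997 ± 0.0499 after the pulse, and 0.878 ± 0.0245 and 0.787 ± 0.0366 in the STING-labelled line.

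COL4A4, COL4A3 and COL4A5 form the type IV network known from kidney glomerulus, alveolus and cochlea. COL4A4 was the 1 member lower after MPS1i in SCR, at 45.96 and 46.6 CPM under DMSO and 37.1 and 38.01 after it. COL4A4 went from 42.3 and 42.2 to 39.4 and 36.6 in the STING-labelled line, from 38.6 and 39.3 to 32.4 and 34.8 in the MAVS-labelled line and from 31.7 and 36.9 to 32.9 and 31.9 in the DKO-labelled line. Treated libraries lay below controls in all genotypes but the DKO-labelled line. COL4A4 had a log2 fold change of -0.30 ± 0.07 (adjusted p = 0.00049) in SCR and -0.21 ± 0.07 (adjusted p = 0.022) in the MAVS-labelled line. It was -0.15 ± 0.07 (adjusted p = 0.11) in the STING-labelled line and -0.08 ± 0.07 (adjusted p = 0.50) in the DKO-labelled line. The MAVS call was lost without replicate 2 of MAVS DMSO (-0.21, adjusted p = 0.079) or replicate 1 of MAVS MPS1i (-0.18, adjusted p = 0.14). The STING value was called without DKO DMSO replicate 2 (-0.16, adjusted p = 0.0499). The effect on COL4A4 in the DKO-labelled line differed from SCR by 0.22 ± 0.10 (adjusted p = 0.11), called without replicate 2 of DKO DMSO (0.35, adjusted p = 0.0069). COL4A3, which starts head to head with COL4A4 (170 bases between the deposited spans), ranged from 4.59 to 8.61 CPM and was called after MPS1i in no genotype (0.25 ± 0.13, adjusted p = 0.10 in SCR). The per-kilobase ratio of COL4A4 to COL4A3 was 5.86 ± 0.222 in SCR under DMSO and 4.01 ± 0.0143 after MPS1i.

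COL4A5 stood at 11.9 and 10.1 CPM in SCR under DMSO and at 13.6 and 15.5 after MPS1i. COL4A5 went from 10.9 and 12.6 to 12.2 and 12.1 in the STING-labelled line, from 11.7 and 10.8 to 14.9 and 12.6 in the MAVS-labelled line and from 9.29 and 9.11 to 10.98 and 11.4 in the DKO-labelled line. Treated libraries were above controls in SCR, the MAVS-labelled line and the DKO-labelled line, by small margins. COL4A5 had a log2 fold change of 0.40 ± 0.10 (adjusted p = 0.0022) in SCR and 0.29 ± 0.11 (adjusted p = 0.0493) in the MAVS-labelled line. It was 0.28 ± 0.12 (adjusted p = 0.11) in the DKO-labelled line and 0.05 ± 0.12 (adjusted p = 0.79) in the STING-labelled line. The SCR call was lost without replicate 2 of SCR DMSO (0.27, adjusted p = 0.082) or replicate 2 of SCR MPS1i (0.29, adjusted p = 0.072). The MAVS call was lost in 15 of the 16 fits without 1 library (kept only without MAVS MPS1i replicate 2; adjusted p 0.0545 to 0.47, the highest without MAVS MPS1i replicate 1 at 0.15). COL4A6, on the X chromosome 340 bases from COL4A5, ranged from 0 to 0.568 CPM and was called in no comparison of treatment.

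The 3 type VI chains, which form one heterotrimer around many cell types, were higher in each of the 3 lines than in SCR. After MPS1i in SCR, COL6A1 and COL6A2 were called higher and COL6A3 was not called. COL6A1 and COL6A2 lie 93061 bases apart on the same strand of chromosome 21, and COL6A3, the longest of the chains, is on chromosome 2 (ENSG00000163359, chr2:237324003-237414328, minus strand). COL6A2 (ENSG00000142173, chr21:46098112-46132848, plus strand) stood at 18.98 and 16.9 CPM in SCR under DMSO and at 26.1 and 24.1 after MPS1i. COL6A2 went from 30.5 and 30.3 to 37.1 and 40.9 in the STING-labelled line, from 33.6 and 30.9 to 39.1 and 43.4 in the MAVS-labelled line and from 64.4 and 55.1 to 66.9 and 63.9 in the DKO-labelled line. All libraries of the 3 lines were above all SCR libraries, and treated libraries were above controls except in the DKO-labelled line, where they overlapped. COL6A2 had a log2 fold change of 0.48 ± 0.08 (adjusted p = 3.8e-05) in SCR and 0.36 ± 0.08 (adjusted p = 0.0020) in the STING-labelled line. It was 0.35 ± 0.08 (adjusted p = 0.0015) in the MAVS-labelled line and 0.13 ± 0.08 (adjusted p = 0.27) in the DKO-labelled line. The STING call was lost without replicate 2 of STING MPS1i (0.28, adjusted p = 0.064), and the MAVS call was lost without replicate 2 of MAVS MPS1i (0.26, adjusted p = 0.066). The DKO value was called without DKO DMSO replicate 1 (0.24, adjusted p = 0.042). The effect in the DKO-labelled line differed from SCR by -0.34 ± 0.11 (adjusted p = 0.026), a call lost without replicate 2 of SCR DMSO (-0.24, adjusted p = 0.18), replicate 1 of SCR MPS1i (-0.26, adjusted p = 0.16), replicate 1 of DKO DMSO (-0.20, adjusted p = 0.19), replicate 1 of DKO MPS1i (-0.36, adjusted p = 0.059) or replicate 2 of DKO MPS1i (-0.31, adjusted p = 0.097).

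COL6A3 went from 86.2 and 81.3 to 89.95 and 88.8 CPM in SCR and from 151 and 145 to 195 and 192 in the DKO-labelled line. It went from 113 and 108 to 128 and 129 in the STING-labelled line and from 112 and 118 to 136 and 131 in the MAVS-labelled line. Treated libraries were above controls in all 4 genotypes, and the gap was widest in the DKO-labelled line. COL6A3 had a log2 fold change of 0.39 ± 0.05 (adjusted p = 2.1e-06) in the DKO-labelled line and 0.22 ± 0.05 (adjusted p = 0.0017) in the STING-labelled line. It was 0.22 ± 0.05 (adjusted p = 0.0012) in the MAVS-labelled line and 0.09 ± 0.05 (adjusted p = 0.12) in SCR. COL6A3 was the 1 member whose effect was larger than in SCR in an interaction test, by 0.29 ± 0.07 (adjusted p = 0.0019) in the DKO-labelled line. The STING call was lost without replicate 2 of STING DMSO (0.16, adjusted p = 0.074) and the MAVS call without replicate 1 of MAVS DMSO (0.15, adjusted p = 0.078).

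COL6A1 stood at 37.3 and 34.98 CPM in SCR under DMSO and at 46.2 and 43.6 after MPS1i. COL6A1 went from 50.6 and 46.8 to 58.7 and 65.1 in the STING-labelled line, from 52.1 and 47.4 to 58.2 and 59.3 in the MAVS-labelled line and from 88.1 and 67.7 to 84.9 and 82.5 in the DKO-labelled line. The DKO DMSO libraries differed from each other by more than their group differed from the treated one. COL6A1 had a log2 fold change of 0.31 ± 0.10 (adjusted p = 0.013) in SCR and 0.35 ± 0.10 (adjusted p = 0.015) in the STING-labelled line. It was 0.24 ± 0.10 (adjusted p = 0.074) in the MAVS-labelled line and 0.11 ± 0.09 (adjusted p = 0.50) in the DKO-labelled line. The SCR call was lost without replicate 1 of SCR DMSO (0.34, adjusted p = 0.0521), replicate 2 of SCR DMSO (0.24, adjusted p = 0.15) or replicate 1 of SCR MPS1i (0.24, adjusted p = 0.12). The STING call was lost without replicate 2 of STING DMSO (0.27, adjusted p = 0.16) or replicate 2 of STING MPS1i (0.26, adjusted p = 0.17). The MAVS value was called without either DKO DMSO library (0.22 in both, adjusted p 0.00633 and 0.00704), and the DKO value without DKO DMSO replicate 1 (0.30, adjusted p = 0.00382). The effect in the DKO-labelled line differed from SCR by -0.20 ± 0.13 (adjusted p = 0.30), which was called without replicate 2 of DKO DMSO (-0.36, adjusted p = 0.0043). Per kilobase, COL6A2 ran at 0.492 ± 0.0175 (SD, n = 2) of COL6A1 in SCR under DMSO, 0.621 ± 0.0309 in the STING-labelled line, 0.644 ± 0.0049 in the MAVS-labelled line and 0.766 ± 0.0583 in the DKO-labelled line. The ratios of the 3 lines under DMSO were all above both SCR libraries.

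COL12A1 (ENSG00000111799, chr6:75084326-75206267, minus strand), a FACIT collagen that binds fibrils, was higher after MPS1i in every genotype and held in every fit without 1 library. It went from 27.1 and 29.7 CPM to 40.95 and 41.5 in SCR and from 34.2 and 36.6 to 52.6 and 54.8 in the STING-labelled line. It went from 26.1 and 26.5 to 43.1 and 42.8 in the MAVS-labelled line and from 41.1 and 44.6 to 55.9 and 52.98 in the DKO-labelled line. No treated library of a genotype reached down to its controls. COL12A1 had a log2 fold change of 0.54 ± 0.06 (adjusted p = 1.1e-07) in SCR and 0.60 ± 0.07 (adjusted p = 1.2e-07) in the STING-labelled line. It was 0.71 ± 0.07 (adjusted p = 6.9e-09) in the MAVS-labelled line and 0.34 ± 0.06 (adjusted p = 0.00042) in the DKO-labelled line. No difference from SCR was called, at 0.06 ± 0.09 (adjusted p = 0.72), 0.17 ± 0.09 (adjusted p = 0.38) and -0.20 ± 0.09 (adjusted p = 0.12) in the STING-labelled, MAVS-labelled and DKO-labelled lines.

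The low-level FACIT COL16A1 stood at 2.39 and 1.68 CPM in SCR under DMSO and at 3.21 and 3.44 after MPS1i. COL16A1 went from 2.51 and 2.24 to 2.67 and 2.49 in the STING-labelled line, from 2.06 and 1.83 to 3.82 and 3.05 in the MAVS-labelled line and from 2.18 and 1.64 to 3.37 and 3.12 in the DKO-labelled line. It overlapped between treatments only in the STING-labelled line. COL16A1 had a log2 fold change of 0.69 ± 0.19 (adjusted p = 0.0041) in SCR and 0.81 ± 0.21 (adjusted p = 0.0039) in the MAVS-labelled line. It was 0.79 ± 0.21 (adjusted p = 0.011) in the DKO-labelled line and 0.12 ± 0.22 (adjusted p = 0.73) in the STING-labelled line. The SCR call was lost without replicate 2 of SCR DMSO (0.45, adjusted p = 0.10), and the MAVS call without replicate 1 of MAVS MPS1i (0.62, adjusted p = 0.073). The DKO call was lost without replicate 2 of DKO DMSO (0.58, adjusted p = 0.17) or replicate 1 of DKO MPS1i (0.72, adjusted p = 0.11). COL21A1 had 0 counts in both STING DMSO libraries and 10 and 3 after MPS1i. COL21A1 passed the filter only through libraries after MPS1i, so no test is given. COL22A1, at 0.203 to 0.956 CPM, was called after MPS1i in no genotype.

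Fibrillar chains were a small share of the family. Of the 7 tested, 5 were called higher after MPS1i in SCR, 2 in the STING-labelled line, 3 in the MAVS-labelled line and 0 in the DKO-labelled line, where 26.0%, 15.5%, 17.1% and 6.53% of all genes were. The counts of 5, 2 and 3 each include COL5A3, whose calls give no support. The 5 include COL5A2, whose call was lost in 15 of the 16 fits without 1 library, and COL5A3. COL27A1 (ENSG00000196739, chr9:114155537-114312511, plus strand), a fibrillar chain best known from cartilage, stood at 7.58 and 5.78 CPM in SCR under DMSO and at 12.4 and 12.1 after MPS1i. COL27A1 went from 11.1 and 9.24 to 8.85 and 10.7 in the STING-labelled line, from 8.01 and 8.22 to 10.8 and 11.1 in the MAVS-labelled line and from 11.6 and 9.44 to 11.1 and 10.4 in the DKO-labelled line. Treated and control libraries were apart in SCR and the MAVS-labelled line and overlapped in the other 2. COL27A1 had a log2 fold change of 0.86 ± 0.13 (adjusted p = 2.5e-06) in SCR and 0.44 ± 0.13 (adjusted p = 0.013) in the MAVS-labelled line. It was -0.06 ± 0.14 (adjusted p = 0.78) in the STING-labelled line and 0.04 ± 0.13 (adjusted p = 0.89) in the DKO-labelled line. The effect differed from SCR by -0.92 ± 0.18 (adjusted p = 0.00065) in the STING-labelled line and -0.82 ± 0.18 (adjusted p = 0.0010) in the DKO-labelled line, and by -0.42 ± 0.18 (adjusted p = 0.20) in the MAVS-labelled line. The MAVS treatment call was lost without replicate 1 of MAVS DMSO (0.39, adjusted p = 0.12), replicate 2 of MAVS DMSO (0.44, adjusted p = 0.060), replicate 1 of MAVS MPS1i (0.44, adjusted p = 0.0507) or replicate 2 of MAVS MPS1i (0.39, adjusted p = 0.092).

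COL5A1 (ENSG00000130635, chr9:134641803-134844843, plus strand) encodes a chain of type V collagen. It went from 12.2 and 10.9 CPM to 15.7 and 15.5 in SCR and from 15.9 and 15.9 to 17.9 and 17.1 in the MAVS-labelled line. In the STING-labelled line it went from 14.05 and 13.1 to 12.2 and 10.5, and in the DKO-labelled line from 30.1 and 26.9 to 22.5 and 25.6. Treated libraries were above controls in the first pair of genotypes and below them in the other 2. COL5A1 had a log2 fold change of 0.43 ± 0.09 (adjusted p = 0.00035) in SCR and 0.14 ± 0.09 (adjusted p = 0.29) in the MAVS-labelled line. It was -0.26 ± 0.10 (adjusted p = 0.060) in the STING-labelled line and -0.24 ± 0.09 (adjusted p = 0.061) in the DKO-labelled line. The STING value was called lower in 5 fits, without SCR MPS1i replicate 2, STING MPS1i replicate 1, MAVS DMSO replicate 1 or either DKO DMSO library (adjusted p 0.0316 to 0.0478). The DKO value was called lower in 2 fits, without DKO DMSO replicate 2 (-0.33, adjusted p = 0.0315) or DKO MPS1i replicate 2 (-0.34, adjusted p = 0.0455). The effect differed from SCR by -0.69 ± 0.14 (adjusted p = 0.00068) in the STING-labelled line and -0.67 ± 0.13 (adjusted p = 0.00019) in the DKO-labelled line. COL5A2, its partner chain, stood at 6.26 and 6.94 CPM and then 7.85 and 8.04 in SCR. COL5A2 went from 7.84 and 6.52 to 7.86 and 8.62 in the STING-labelled line, from 7.14 and 7.76 to 9.75 and 8.90 in the MAVS-labelled line and from 10.5 and 11.6 to 12.1 and 11.7 in the DKO-labelled line. Treated COL5A2 libraries were above controls in each genotype. Its calls of 0.27 ± 0.11 (adjusted p = 0.0477) in SCR and 0.33 ± 0.12 (adjusted p = 0.035) in the MAVS-labelled line were at the threshold. The SCR call was lost in 15 of the 16 fits without 1 library (kept only without STING DMSO replicate 1; adjusted p 0.0524 to 0.35, the highest without SCR DMSO replicate 1 at 0.18). The MAVS call was lost in 7 (without either SCR MPS1i library, any MAVS library or DKO MPS1i replicate 1; adjusted p 0.0523 to 0.285, the highest without MAVS DMSO replicate 1).

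COL1A1, the main chain of type I collagen, stood at 4.40 and 4.05 CPM in SCR under DMSO and at 6.67 and 8.04 after MPS1i. COL1A1 went from 3.16 and 3.94 to 5.22 and 4.92 in the STING-labelled line, from 4.80 and 4.46 to 5.90 and 6.09 in the MAVS-labelled line and from 4.55 and 4.91 to 6.19 and 5.16 in the DKO-labelled line. In each genotype both treated libraries were above both controls. COL1A1 had a log2 fold change of 0.80 ± 0.14 (adjusted p = 2.3e-05) in SCR and 0.52 ± 0.16 (adjusted p = 0.017) in the STING-labelled line. It was 0.37 ± 0.15 (adjusted p = 0.058) in the MAVS-labelled line and 0.27 ± 0.15 (adjusted p = 0.25) in the DKO-labelled line. The STING call was lost without replicate 1 of STING DMSO (0.35, adjusted p = 0.23), replicate 1 of STING MPS1i (0.47, adjusted p = 0.092) or replicate 2 of STING MPS1i (0.55, adjusted p = 0.0548). The difference of the DKO-labelled line from SCR in this effect (-0.53 ± 0.20, adjusted p = 0.0515) was called without replicate 1 of SCR MPS1i (-0.63, adjusted p = 0.038) or replicate 1 of DKO MPS1i (-0.66, adjusted p = 0.043). COL5A3, at most 1.47 CPM in any library, went from 0.223 and 0.202 to 0.619 and 0.956 CPM in SCR and from 0.288 and 0.355 to 0.924 and 1.47 in the MAVS-labelled line. It went from 0.205 and 0.243 to 0.534 and 0.693 in the STING-labelled line and from 0.115 and 0.278 to 0.436 and 0.473 in the DKO-labelled line. COL5A3 passed the filter mainly through libraries after MPS1i, so no test is given. COL11A2 (0.554 to 1.68 CPM) and COL24A1 (0.104 to 0.422 CPM) were called after MPS1i in no genotype.

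COL18A1, the multiplexin whose end fragment is endostatin, stood at 134 and 118 CPM in SCR under DMSO and at 134 and 131 after MPS1i. COL18A1 went from 154 and 153 to 177 and 186 in the STING-labelled line, from 168 and 154 to 148 and 152 in the MAVS-labelled line and from 220.2 and 193 to 211 and 201 in the DKO-labelled line. Treatments overlapped in SCR and the DKO-labelled line. COL18A1 had a log2 fold change of 0.24 ± 0.06 (adjusted p = 0.0046) in the STING-labelled line. That call was lost without replicate 2 of STING DMSO (0.22, adjusted p = 0.066) or replicate 2 of STING MPS1i (0.20, adjusted p = 0.089). It was 0.07 ± 0.06 (adjusted p = 0.37), -0.10 ± 0.06 (adjusted p = 0.23) and -0.0020 ± 0.06 (adjusted p = 0.99) in SCR, the MAVS-labelled and the DKO-labelled lines. The difference between the STING-labelled line and SCR in this effect was 0.17 ± 0.09 (adjusted p = 0.18), and it was called without SCR DMSO replicate 2 (0.28, adjusted p = 0.032) or DKO DMSO replicate 1 (0.20, adjusted p = 0.042). COL15A1, the other multiplexin, ranged from 0.101 to 0.596 CPM and was called in the MAVS-labelled line (1.77 ± 0.66, adjusted p = 0.040). In that line it missed the filter's level under DMSO and reached it after MPS1i, which limits the call. The call was lost in 9 of the 16 fits without 1 library. These were without either SCR DMSO, STING DMSO, STING MPS1i or MAVS DMSO library, or without MAVS MPS1i replicate 1 (1.16).

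COL7A1, the anchoring fibril of the epithelial basement membrane, stood at 49.2 and 43.1 CPM in SCR under DMSO and at 51.5 and 51.4 after MPS1i. COL7A1 went from 61.2 and 57.3 to 47.4 and 51.6 in the STING-labelled line, from 56.3 and 49.9 to 52.8 and 50.8 in the MAVS-labelled line and from 69.2 and 66.2 to 60.4 and 58.3 in the DKO-labelled line. Treated libraries lay above controls in SCR and below them in the STING-labelled and DKO-labelled lines. COL7A1 had a log2 fold change of -0.26 ± 0.07 (adjusted p = 0.0066) in the STING-labelled line. That call was lost without replicate 1 of STING DMSO (-0.22, adjusted p = 0.085) or replicate 1 of STING MPS1i (-0.21, adjusted p = 0.088). It was 0.15 ± 0.07 (adjusted p = 0.062) in SCR, -0.19 ± 0.07 (adjusted p = 0.067) in the DKO-labelled line and -0.04 ± 0.07 (adjusted p = 0.70) in the MAVS-labelled line. The SCR value was called without SCR DMSO replicate 1 (0.24, adjusted p = 0.019), and the DKO value without either SCR DMSO library (adjusted p 0.0476 and 0.0473). The effect differed from SCR by -0.41 ± 0.10 (adjusted p = 0.0032) in the STING-labelled line and -0.34 ± 0.10 (adjusted p = 0.0086) in the DKO-labelled line, the latter lost without replicate 2 of SCR DMSO (-0.23, adjusted p = 0.10).

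Under DMSO, without the inhibitor, the lines also differed from SCR in their collagens. The DKO-labelled line had 13 of the 26 tested members higher than SCR and 4 lower (median log2 difference 0.57), where 31.1% of all genes were called, 15.8% higher and 15.3% lower. The STING-labelled line had 7 higher and 1 lower (median 0.17), where 10.2% were called, 4.70% higher and 5.47% lower. The MAVS-labelled line had 7 higher and 2 lower (median 0.21), where 6.56% were called, 3.98% higher and 2.57% lower. All 3 comparisons share the SCR libraries. The calls that held without each library in turn were 15 of 17, 3 of 8 and 4 of 9. The calls in the DKO-labelled line, also those that held, include COL13A1, which passed the filter in part through that group. Among the 19 members at the filter's level in all groups, the counts were 11 higher and 4 lower in the DKO-labelled line, 7 and 1 in the STING-labelled line, and 7 and 2 in the MAVS-labelled line.

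All 3 type VI chains were higher in each line than in SCR under DMSO, and most in the DKO-labelled line. The log2 difference of COL6A2 was 1.73 ± 0.08 (adjusted p = 1.5e-14) there, 0.85 ± 0.09 (adjusted p = 4.9e-07) in the MAVS-labelled line and 0.76 ± 0.09 (adjusted p = 1.2e-06) in the STING-labelled line. For COL6A3 it was 0.82 ± 0.05 (adjusted p = 1.5e-12), 0.46 ± 0.05 (adjusted p = 1.3e-06) and 0.40 ± 0.05 (adjusted p = 4.1e-06), and these 6 values held in every fit without 1 library. For COL6A1 it was 1.10 ± 0.10 (adjusted p = 1.8e-07), which held, 0.46 ± 0.10 (adjusted p = 0.0098), lost without replicate 1 of SCR DMSO (0.51, adjusted p = 0.0538), replicate 2 of SCR DMSO (0.41, adjusted p = 0.14) or replicate 1 of MAVS DMSO (0.39, adjusted p = 0.17), and 0.43 ± 0.10 (adjusted p = 0.011), lost without replicate 1 of SCR DMSO (0.47, adjusted p = 0.0528), replicate 2 of SCR DMSO (0.37, adjusted p = 0.13) or replicate 1 of STING DMSO (0.38, adjusted p = 0.14).

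COL5A1 followed in the DKO-labelled line with 1.29 ± 0.09 (adjusted p = 2.5e-11). It was 0.46 ± 0.10 (adjusted p = 0.0042) in the MAVS-labelled line, lost without replicate 2 of SCR DMSO (0.38, adjusted p = 0.083) or replicate 1 of MAVS DMSO (0.46, adjusted p = 0.060), and 0.23 ± 0.10 (adjusted p = 0.15) in the STING-labelled line. COL5A2 (0.75 ± 0.11), COL18A1 (0.71 ± 0.06), COL4A2 (0.66 ± 0.06), COL27A1 (0.63 ± 0.13), COL12A1 (0.60 ± 0.07), COL4A1 (0.58 ± 0.05) and COL7A1 (0.55 ± 0.07) were also higher in the DKO-labelled line (adjusted p from 2.8e-09 to 0.00047), and each held. COL18A1 was higher in the MAVS-labelled line (0.35 ± 0.06, adjusted p = 0.00085), as was COL4A2 (0.32 ± 0.06, adjusted p = 0.00082). In the MAVS-labelled line COL4A1 was called at 0.23 ± 0.05 (adjusted p = 0.0034), a call lost without replicate 1 of MAVS DMSO (0.23, adjusted p = 0.0507). In the STING-labelled line COL12A1 (0.32 ± 0.07, adjusted p = 0.0025) was lost without replicate 1 of SCR DMSO (0.24, adjusted p = 0.071), and COL18A1 (0.28 ± 0.06, adjusted p = 0.0037) was lost without replicate 2 of SCR DMSO (0.18, adjusted p = 0.13). COL7A1 (0.36 ± 0.07, adjusted p = 0.0010) was lost without replicate 2 of SCR DMSO (0.26, adjusted p = 0.056). COL27A1 (0.60 ± 0.13, adjusted p = 0.0045) was lost without replicate 2 of SCR DMSO (0.41, adjusted p = 0.11) or replicate 1 of STING DMSO (0.46, adjusted p = 0.14). COL7A1 in the MAVS-labelled line (0.20 ± 0.07, adjusted p = 0.083) was called without replicate 1 of SCR DMSO (0.30, adjusted p = 0.034) or replicate 2 of MAVS DMSO (0.29, adjusted p = 0.041).

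COL17A1 went the other way, lower than SCR under DMSO by a log2 difference of -0.95 ± 0.11 (adjusted p = 1.2e-07) in the DKO-labelled line and -0.56 ± 0.11 (adjusted p = 0.00094) in the STING-labelled line, both of which held. In the MAVS-labelled line it was -0.42 ± 0.11 (adjusted p = 0.015), lost without replicate 1 of SCR DMSO (-0.41, adjusted p = 0.085), replicate 2 of SCR DMSO (-0.44, adjusted p = 0.067) or replicate 2 of MAVS DMSO (-0.29, adjusted p = 0.21). COL8A1 was lower in the DKO-labelled line (-0.34 ± 0.08, adjusted p = 0.0014), as was COL4A4 (-0.43 ± 0.07, adjusted p = 2.4e-05). COL4A4 in the MAVS-labelled line (-0.25 ± 0.07, adjusted p = 0.028) was lost without either SCR DMSO or either MAVS DMSO library (adjusted p 0.0852 to 0.235). COL4A3 in the DKO-labelled line (-0.43 ± 0.13, adjusted p = 0.016) was lost without replicate 2 of SCR DMSO (-0.40, adjusted p = 0.084) or replicate 1 of DKO DMSO (-0.30, adjusted p = 0.16). COL13A1, which had 1 and 0 counts in the SCR DMSO libraries, had 15 and 9 in those of the DKO-labelled line, a group through which it passed the filter, so no test is given. COL22A1 was called higher there too (1.53 ± 0.46, adjusted p = 0.013). It missed the filter's level only in SCR under DMSO, the group it was compared with, which limits the call. That call was lost without replicate 1 of SCR DMSO (1.20) or replicate 1 of DKO DMSO (1.10). COL11A2 (0.68 ± 0.36, adjusted p = 0.17) was called without DKO DMSO replicate 2 (1.19, adjusted p = 0.016), and COL4A5 (-0.27 ± 0.11, adjusted p = 0.068) without SCR DMSO replicate 2 (-0.39, adjusted p = 0.0255).

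After MPS1i the lines stood apart from SCR in both directions. The DKO-labelled line had 10 members higher and 7 lower (median 0.04), where 45.1% of genes were called, 22.6% higher and 22.4% lower. The STING-labelled line had 6 higher and 7 lower (median -0.24), where 33.1% were called, 15.8% higher and 17.3% lower. The MAVS-labelled line had 5 higher and 3 lower (median 0.05), where 15.9% were called, 7.46% higher and 8.47% lower. The calls that held without each library were 12 of 17, 10 of 13 and 4 of 8. Over the 19 members at the level in all groups, 8 were higher and 7 lower in the DKO-labelled line, 5 and 7 in the STING-labelled line, and 4 and 3 in the MAVS-labelled line.

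COL17A1 had the largest gap among members above 1 CPM, at -2.05 ± 0.10 (adjusted p = 1.1e-14) in the DKO-labelled line, -1.63 ± 0.10 (adjusted p = 1.5e-12) in the STING-labelled line and -1.04 ± 0.09 (adjusted p = 6.0e-09) in the MAVS-labelled line. COL8A1 was lower by a log2 difference of -1.14 ± 0.07 (adjusted p = 1.5e-12) and -0.74 ± 0.07 (adjusted p = 6.3e-09) in the DKO-labelled and STING-labelled lines. In the MAVS-labelled line COL8A1 was at -0.25 ± 0.07 (adjusted p = 0.013), a call lost without replicate 2 of SCR MPS1i (-0.16, adjusted p = 0.27) or replicate 1 of MAVS MPS1i (-0.22, adjusted p = 0.12). COL4A1, higher than in SCR under DMSO in the DKO-labelled line, was lower there after MPS1i (-0.42 ± 0.05, adjusted p = 6.4e-08), and lower in the STING-labelled line (-0.74 ± 0.05, adjusted p = 5.1e-12). In the MAVS-labelled line it was -0.13 ± 0.05 (adjusted p = 0.0547), and it was called in the fits without either DKO DMSO library or DKO MPS1i replicate 1 (adjusted p 0.0277 to 0.0431). COL4A2 was lower in the STING-labelled line (-0.39 ± 0.06, adjusted p = 5.4e-06), as was COL5A1 (-0.46 ± 0.10, adjusted p = 0.00052). The type VI chains stayed higher: COL6A2 by 1.39 ± 0.08, 0.72 ± 0.08 and 0.64 ± 0.08, and COL6A3 by 1.11 ± 0.05, 0.58 ± 0.05 and 0.52 ± 0.05 in the DKO-labelled, MAVS-labelled and STING-labelled lines (adjusted p at most 8.3e-07). These 6 held, as did COL6A1 in the DKO-labelled (0.90 ± 0.09) and STING-labelled (0.46 ± 0.10) lines. COL6A1 in the MAVS-labelled line (0.39 ± 0.09, adjusted p = 0.0090) was lost without replicate 2 of SCR MPS1i (0.34, adjusted p = 0.13), replicate 1 of MAVS MPS1i (0.40, adjusted p = 0.059) or replicate 2 of MAVS MPS1i (0.37, adjusted p = 0.087). COL18A1 was higher in the DKO-labelled (0.64 ± 0.06, adjusted p = 5.9e-09) and STING-labelled (0.46 ± 0.06, adjusted p = 2.4e-06) lines. Its MAVS call (0.18 ± 0.06, adjusted p = 0.043) was lost in 10 of the 16 fits without 1 library (without either SCR MPS1i library, either STING DMSO library, either STING MPS1i library, either MAVS MPS1i library or either DKO MPS1i library; adjusted p 0.0513 to 0.26, the highest without SCR MPS1i replicate 2 at 0.17).

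Among the further calls after MPS1i, COL12A1 was higher in the DKO-labelled (0.40 ± 0.06, adjusted p = 9.3e-06) and STING-labelled (0.38 ± 0.06, adjusted p = 3.5e-05) lines, and COL5A1 (0.62 ± 0.09, adjusted p = 2.7e-06) and COL5A2 (0.59 ± 0.11, adjusted p = 0.00010) in the DKO-labelled line. COL4A3 was lower in the DKO-labelled line (-0.72 ± 0.14, adjusted p = 9.2e-05), and at -0.52 ± 0.13 (adjusted p = 0.0052) in the MAVS-labelled line, lost without replicate 2 of SCR MPS1i (-0.51, adjusted p = 0.0507) or replicate 2 of MAVS MPS1i (-0.44, adjusted p = 0.099). In the DKO-labelled line COL4A4 (-0.21 ± 0.07, adjusted p = 0.016) was lost without replicate 2 of SCR MPS1i (-0.18, adjusted p = 0.11), replicate 1 of DKO MPS1i (-0.23, adjusted p = 0.057) or replicate 2 of DKO MPS1i (-0.18, adjusted p = 0.10). COL4A5 (-0.38 ± 0.11, adjusted p = 0.0049) was lost there without replicate 2 of SCR MPS1i (-0.28, adjusted p = 0.11) or replicate 1 of DKO MPS1i (-0.34, adjusted p = 0.070). COL7A1 (0.21 ± 0.07, adjusted p = 0.015) was lost without replicate 2 of SCR MPS1i (0.22, adjusted p = 0.0547) or replicate 1 of DKO MPS1i (0.19, adjusted p = 0.11). COL1A1 (-0.36 ± 0.14, adjusted p = 0.034) was lost without replicate 2 of SCR MPS1i (-0.21, adjusted p = 0.37), replicate 1 of MAVS DMSO (-0.34, adjusted p = 0.056) or replicate 2 of DKO MPS1i (-0.25, adjusted p = 0.27). COL4A2 there (-0.13 ± 0.06, adjusted p = 0.061) was called without replicate 1 of DKO DMSO (-0.13, adjusted p = 0.0482), as was COL4A5 in the STING-labelled line (-0.27 ± 0.11, adjusted p = 0.0549) without replicate 1 of SCR MPS1i (-0.34, adjusted p = 0.0459). In the STING-labelled line COL1A1 (-0.54 ± 0.14, adjusted p = 0.0036) was lost without replicate 2 of SCR MPS1i (-0.40, adjusted p = 0.10), and COL27A1 (-0.33 ± 0.13, adjusted p = 0.0482) in 11 of the 16 fits without 1 library (kept only without either SCR DMSO library, STING MPS1i replicate 2 or either DKO DMSO library; adjusted p 0.0522 to 0.40, the highest without STING MPS1i replicate 1 at -0.19). COL13A1 (0 and 1 count in SCR after MPS1i) and COL21A1 passed the filter only through groups of these lines, so their higher counts there give no support. The numbers of members called higher after MPS1i do include COL13A1 in each line and COL21A1 in the DKO-labelled line. COL13A1 is also among the calls that held in the DKO-labelled and MAVS-labelled lines.

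**Figure D5:**
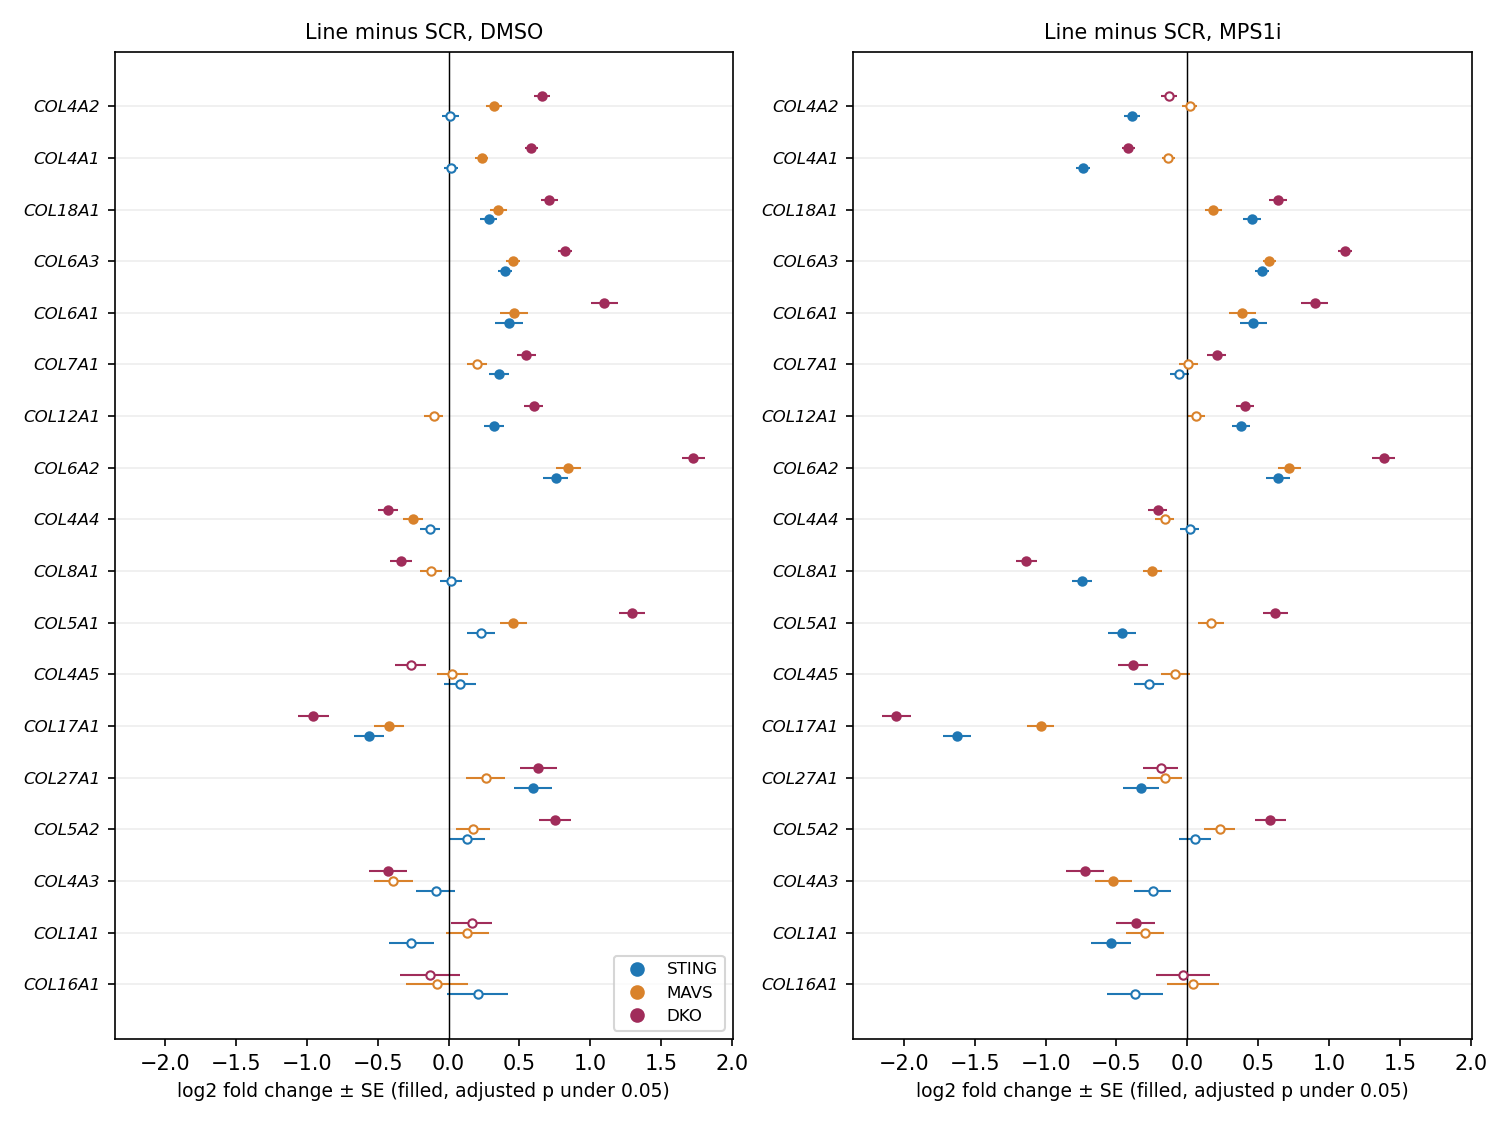
Log2 difference between each line and SCR (± SE) for the 18 members above 1 CPM, under DMSO (left) and after MPS1i (right), with filled points for an adjusted p under 0.05. COL6A2 lies to the right of 0 in all 3 lines in both panels (1.73 and 1.39 in the DKO-labelled line), and COL17A1 lies to the left of 0, farther so after MPS1i (-2.05 in the DKO-labelled line).

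Collagen chains are hydroxylated, glycosylated, folded, exported and cross-linked by dedicated proteins, and 29 of the 33 listed passed the filter. After MPS1i, 16 were higher and 4 lower in SCR (median log2 fold change 0.27). The 16 include LOXL3, at 0.101 and 0.116 CPM in SCR under DMSO and 0.366 and 0.410 after MPS1i. LOXL3 was below the filter's level in the former and above it in the latter, so its call gives no support. The counts higher and lower were 14 and 3 in the STING-labelled line (0.25) and 7 and 3 in the MAVS-labelled line (0.15). They were 5 and 1 in the DKO-labelled line (0.13). Of the tested list genes, 69.0% were called in SCR and 58.6%, 34.5% and 20.7% in the STING-labelled, MAVS-labelled and DKO-labelled lines. Over all genes the shares were 50.0%, 29.4%, 33.4% and 14.8%, so the MAVS share was near that of all genes. PLOD2, which hydroxylates lysines for cross-linking, was at 395 and 414 CPM in SCR under DMSO and 731 and 764 after MPS1i, a log2 fold change of 0.89 ± 0.05 (adjusted p = 2.6e-13). It was called in the other lines too, at 0.44, 0.57 and 0.37 in the STING-labelled, MAVS-labelled and DKO-labelled lines, each smaller than in SCR. The differences were -0.45 ± 0.08 (adjusted p = 7.8e-05), -0.32 ± 0.07 (adjusted p = 0.0076) and -0.51 ± 0.07 (adjusted p = 6.6e-06). LOXL2, a lysyl oxidase that cross-links type IV collagen, went from 56.4 and 53.7 to 91.8 and 87.8 CPM in SCR (0.71 ± 0.06, adjusted p = 7.3e-10), with 0.70, 0.59 and 0.50 in the other lines and no difference from SCR called. ADAMTS14, a procollagen N-proteinase, was at 2.14 ± 0.28 (adjusted p = 5.7e-07) in SCR, from 0.426 and 0.636 to 2.62 and 2.004 CPM. Of the prolyl 3-hydroxylase complex, P3H1 (0.40 ± 0.06, adjusted p = 6.7e-06) and PPIB (0.31 ± 0.05, adjusted p = 1.6e-05) were higher in SCR. CRTAP, named after its values were seen as the other part of that complex, was lower (-0.22 ± 0.05, adjusted p = 0.00028). The lysyl hydroxylase PLOD1 rose by 0.51 ± 0.07 (adjusted p = 2.3e-06) and P3H4, which works with lysyl hydroxylase, by 0.56 ± 0.08 (adjusted p = 7.5e-07). SERPINH1, the collagen chaperone HSP47, was at 0.40 ± 0.07 (adjusted p = 5.2e-05) in SCR.

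MIA2, a cargo receptor of large secretory proteins, was lower in SCR (-0.67 ± 0.07, adjusted p = 1.4e-08), and also in the STING-labelled (-0.46), MAVS-labelled (-0.55) and DKO-labelled (-0.30) lines, the last lost without DKO DMSO replicate 2 (-0.17, adjusted p = 0.091). P4HA2, a subunit of prolyl 4-hydroxylase, was called in SCR at 0.21 ± 0.08 (adjusted p = 0.026), a call lost in 8 of the 16 fits without 1 library (any SCR library, MAVS DMSO replicate 1, either MAVS MPS1i library or DKO MPS1i replicate 1; adjusted p 0.0504 to 0.229). LOX had 43 counts in all and was not tested.

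Of 10 collagen receptors, 8 were tested, and 2 were higher and 2 lower after MPS1i in SCR, a share of 50.0% that equals the 50.0% of all genes called there. ITGA2, the alpha chain of a main collagen-binding integrin, went from 51.2 and 51.9 to 142 and 158 CPM (1.54 ± 0.06, adjusted p = 2.5e-17). Its log2 fold change was 0.85, 1.11 and 0.62 in the STING-labelled, MAVS-labelled and DKO-labelled lines, smaller than in SCR in each (adjusted p 1.3e-06, 0.0011 and 3.2e-09). ITGB1, its beta partner, was lower in SCR (-0.31 ± 0.05, adjusted p = 1.2e-05). DDR2 (-0.58 ± 0.18, adjusted p = 0.0076) was lost without SCR MPS1i replicate 1 (-0.48, adjusted p = 0.082). ITGA11 (0.77 ± 0.29, adjusted p = 0.029) was lost in 3 of the fits without 1 library (either SCR DMSO library or SCR MPS1i replicate 1; adjusted p 0.0985 to 0.219).

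Of 14 genes of collagen breakdown and its inhibitors, 11 were tested, and 9 were higher and 1 lower in SCR (median 0.50). The counts were 7 and 0 in the STING-labelled line, 6 and 0 in the MAVS-labelled line and 4 and 0 in the DKO-labelled line. Of all genes, 26.0% were called higher in SCR, 15.5% in the STING-labelled, 17.1% in the MAVS-labelled and 6.53% in the DKO-labelled line. TIMP3, a matrix-bound inhibitor of metalloproteinases, went from 53.3 and 54.5 to 171 and 172 CPM in SCR (1.67 ± 0.05, adjusted p = 1.7e-19), and its log2 fold change was 1.08, 1.30 and 0.80 in the other lines. The collagenase MMP13 was at 0.122 and 0.0867 CPM in SCR under DMSO and at 5.43 and 5.85 after MPS1i. After the pulse MMP13 stood at 0.877 and 0.762 in the STING-labelled line, 1.64 and 1.21 in the MAVS-labelled line and 0.0581 and 0.0473 in the DKO-labelled line. In SCR under DMSO it was below the filter's level of 0.3208 CPM. It entered the fit through groups where it was high, so no test is given. The counts of breakdown genes called higher include MMP13 in SCR and in the STING-labelled and MAVS-labelled lines. MMP1, which cleaves fibrillar collagen, was at 2.74 ± 0.24 (adjusted p = 5.1e-10) in SCR and was called higher in every line. TIMP1 was at 0.67 ± 0.08 (adjusted p = 6.5e-07) in SCR and was called higher in every line.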

How the data were processed

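Poly(A)-enriched RNA of 16 NCI-H1944 libraries (8 groups of 2) was sequenced after a stranded library kit, per the labels' protocols. The deposited table holds raw read counts per gene, made by the authors with Trim Galore, cutadapt, Trimmomatic, STAR and featureCounts on GRCh38, per the submitters' processing notes; tool versions, annotation release and strand setting are not given in the sources used here. Groups came from the labels. Counts were fitted with edgeR 4.0.16 in R 4.3.3 (TMM scaling, filter of 10 counts with a total of 15, 1 mean per group, robust quasi-likelihood test, 8 residual degrees of freedom, 17950 genes, 13 contrasts). The p-values were adjusted by Benjamini-Hochberg over all genes within a contrast, with a threshold of 0.05, and the standard error is the log2 fold change divided by the root of F. The script was tested on simulated counts. CPM uses TMM-scaled totals. Library totals of 19893784 to 49769938 set the counting error.

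Members and gene lists were chosen with earlier results of these data known. Values in every library are given for tested members of at least 1 CPM called in at least 1 treatment contrast; the others get ranges. From the biosynthesis list 8 genes, and from the receptor and breakdown lists 4 each, were named by smallest adjusted p in SCR, plus SERPINH1, P4HA2, PLOD2 and LOX. The alternatives were DESeq2 1.42.0, RLE and upper-quartile scaling, no filter or a mean of 1 CPM, only the compared groups, a replicate block, and each library left out. The interferon-response type and NF-kB type motifs were added after seeing the data.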

Additional observations from a re-analysis of the deposited data

Results flagged for a closer look

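The log2 effect of MPS1i differed from that in SCR, by an interaction term in the edgeR fit, for the collagen members below, and the 3 lines share the SCR libraries in these tests. In the DKO-labelled line the difference was -1.10 for COL17A1, -1.001 for COL4A1, -0.82 for COL27A1, -0.80 for COL8A1, -0.79 for COL4A2, -0.67 for COL5A1, -0.34 for COL6A2, -0.34 for COL7A1 and 0.29 for COL6A3. In the STING-labelled line it was -1.07 for COL17A1, -0.92 for COL27A1, -0.76 for COL8A1, -0.75 for COL4A1, -0.69 for COL5A1, -0.41 for COL7A1 and -0.41 for COL4A2. In the MAVS-labelled line it was -0.62 for COL17A1, -0.37 for COL4A1 and -0.31 for COL4A2. The differences of COL4A1 held in all 3 lines without each library in turn. Groups of 2 libraries are too small for a check on single outlying samples.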

How the results depend on the processing

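With DESeq2, other scalings, other filters, only the compared groups or the replicate block, the number of members called stayed within 1.5 times the main count in all 13 comparisons. The members did change. Above 1 CPM, DESeq2 lost the treatment calls of COL5A2 in SCR and the MAVS-labelled line and of COL4A5 in the latter. It lost those of COL1A1 in the STING-labelled and COL16A1 in the DKO-labelled line. Against SCR it lost COL4A3 (DMSO) and COL1A1 (MPS1i) in the DKO-labelled line and COL27A1 (MPS1i) in the STING-labelled line. The COL6A2 interaction was lost too, and COL4A1 after MPS1i in the MAVS-labelled line was gained. The replicate numbers do not pair the libraries: over 28 pairs of groups the deviations of same-numbered libraries correlated between -0.047 and 0.088. With the replicate block the treatment comparisons had 15, 10, 14 and 7 calls in SCR and the STING-, MAVS- and DKO-labelled lines. Leaving out 1 library gave 11 to 15 calls in SCR, 5 to 13 in the STING-labelled line (5 without STING DMSO replicate 2 or STING MPS1i replicate 2), 8 to 14 in the MAVS-labelled line (8 or 9 without MAVS DMSO replicate 1 or 2 or MAVS MPS1i replicate 1) and 4 to 8 in the DKO-labelled line. Against SCR under DMSO it gave 4 to 8 calls for the STING-labelled line (4 without SCR DMSO replicate 2), 5 to 9 for the MAVS-labelled line (5 without SCR DMSO replicate 2 or MAVS DMSO replicate 1) and 15 to 18 for the DKO-labelled line. After MPS1i it gave 10 to 13, 4 to 9 (4 without SCR MPS1i replicate 2, 5 without either MAVS MPS1i library) and 12 to 17. The interactions gave 7 to 8, 1 to 3 (1 without MAVS DMSO replicate 1) and 7 to 11. Of 1564 values of named members under an alternative, 1427 kept direction and side of the threshold, 80 lost the call, 37 gained one and 20 changed sign, none of which was called. Those near 0 were COL17A1 in the STING-labelled line (-0.028 to 0.11 over the fits without 1 library, lowest without STING MPS1i replicate 2) and in the DKO-labelled line (-0.091 to 0.15; below 0 without DKO DMSO replicate 1, and -0.030 without DKO MPS1i replicate 2). COL18A1 spanned -0.039 (without SCR DMSO replicate 2) to 0.14 in SCR. In the DKO-labelled line COL18A1 spanned -0.098 to 0.089 (highest without DKO DMSO replicate 1), and was 0.0030 with DESeq2, 0.0037 with RLE, 0.032 with upper-quartile scaling, 0.0058 with a mean of 1 CPM, and 0.00077 and 0.026 without SCR MPS1i replicate 2 and DKO MPS1i replicate 2. COL27A1 spanned -0.22 to 0.071 in the STING-labelled line (highest without replicate 1 of STING DMSO, and 0.057 without that of STING MPS1i) and -0.12 to 0.18 in the DKO-labelled line (below 0 without DKO DMSO replicate 2, and -0.017 without DKO MPS1i replicate 1). COL4A2 spanned -0.032 (without STING MPS1i replicate 2) to 0.092 and COL4A5 -0.066 (without STING DMSO replicate 1) to 0.13 in the STING-labelled line. In the DKO-labelled line COL4A4 spanned -0.19 to 0.029 and COL6A1 -0.076 to 0.30, each changing sign without DKO DMSO replicate 2. COL7A1 spanned -0.13 to 0.028 (without MAVS DMSO replicate 1) in the MAVS-labelled line. The causes were not tested. Members under 1 CPM rest on few reads, and 2 libraries a group limit every test.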
